A study of Mus musculus with 18 samples.

Results

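Matricellular proteins are secreted proteins that sit in the extracellular matrix without being part of its load-bearing fibres. They bind matrix, growth factors and cell-surface receptors, and so change how cells attach, spread and respond to signals. Fibroblasts are a main source of several of them, and they are known from wound repair, tendon, bone and tumour stroma. The 10 genes described here are the thrombospondins Thbs1, Thbs2, Thbs3 and Comp, the tenascin gene Tnc, Postn (periostin), Sparc and its relative Smoc2, Spp1 (osteopontin), and Ccdc80. They were taken as a list by name, chosen with earlier results of these data known, so counts of them set beside all genes are a description. They are 10 of the 55401 genes in the count table, of which 30065 had at least 1 count. All 10 passed the filter on low counts in both series, Comp only through its WT EV libraries.

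The cells were mouse embryonic fibroblasts (MEFs), cultures grown from embryos after the head and viscera were removed. All were infected in bulk with a retrovirus and selected for it, so each library is a mixed population and not a clone. Poly(A) RNA was sequenced from 18 libraries in 6 groups of 3, split over 2 genetic series of 9 libraries. In the first, called the S6K1 series, wild-type (WT) cells carried either the empty vector (EV) or a constitutively active HRAS (RAS), and S6K1 knockout (KO) cells carried RAS. The second, the S6K1/S6K2 series, had its own WT EV and WT RAS groups and double knockout (DKO) cells with RAS that lacked both S6K1 and S6K2. The S6K1 KO and WT cells came from littermates, whereas the DKO cells and their WT cells came from separate matings. Knockout cells with EV were not analysed here, so the loss of a kinase was compared only in cells that carried RAS. S6K1 and S6K2 are kinases of the mTORC1 pathway, and RAS of this kind drives primary fibroblasts into senescence, a lasting growth arrest with altered secretion.

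Library totals were between 8319445 and 14402442 counts, at which the floor of 3 counts, used as the upper limit for a gene without reads, equals 0.361 and 0.208 CPM (counts scaled to a fixed library total). All levels below are CPM after TMM scaling within a series. The knockout labels were checked on the targeted genes. Rps6kb1, which encodes S6K1, had 23.6 to 37.0 CPM in KO RAS and 61.6 to 74.6 CPM in WT RAS, with an adjusted p of 0.234 in edgeR and 0.000101 with the replicate number as a block. Gene-level counts do not show which exons a knockout removes. Rps6kb2, which encodes S6K2, had 2.68 to 3.04 CPM in DKO RAS and 24.1 to 28.9 CPM in WT RAS. Rps6kb1 had 34.5 to 39.7 CPM in DKO RAS and 75.5 to 83.7 CPM in the WT RAS group of that series (edgeR adjusted p 0.00908). Hras had 114.9 to 119.3 CPM with RAS and 50.8 to 72.7 CPM with EV in the S6K1 WT cells, and 91.3 to 103.8 CPM against 51.0 to 66.1 CPM in the other WT cells. All 10 fibroblast markers were above the limit of a zero count in all groups, with a summed level in the S6K1 series of 43750 to 54174 CPM with EV and 24029 to 35771 CPM with RAS in WT cells, and of 44101 to 51584 CPM and 25858 to 29540 CPM in the S6K1/S6K2 series. The labelled cell type thus had its markers in every group, although Col1a1, Col1a2, Col3a1 and Pdgfrb, 4 of those 10 markers, fell with RAS in both series. Lum was called higher in the S6K1 series (log2 fold change 1.07), and 4 of the 10 markers had values above 0 in each series.

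Together the 10 genes held between 2.08% and 3.98% of all counts in a library. To compare levels between genes, CPM was divided by exon length, giving CPM per kilobase. Spp1 stood first on that scale in 5 of the 6 groups, with a mean of 3565 ± 1296 CPM per kilobase (SD, n = 3) in WT EV of the S6K1 series and 13200 ± 2353 in WT RAS of the S6K1/S6K2 series. In WT EV of the S6K1/S6K2 series Sparc had the highest mean, 2078 ± 464 CPM per kilobase, but the range of Spp1, with 2067 ± 1508, overlapped it. Sparc, Thbs1 and Tnc followed Spp1 in that order in all 4 RAS groups, although Thbs1 and Tnc overlapped in those of the S6K1 series and Sparc and Thbs1 in those of the S6K1/S6K2 series. Thbs3, Smoc2 and Comp were the lowest of the 10 in each group. Comp was last throughout, at 16.5 ± 12.3 CPM per kilobase in WT EV of the S6K1/S6K2 series, where its range overlapped that of Thbs3, and at 0.0890 ± 0.0378 in WT RAS of the S6K1 series.

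**Figure D1:**
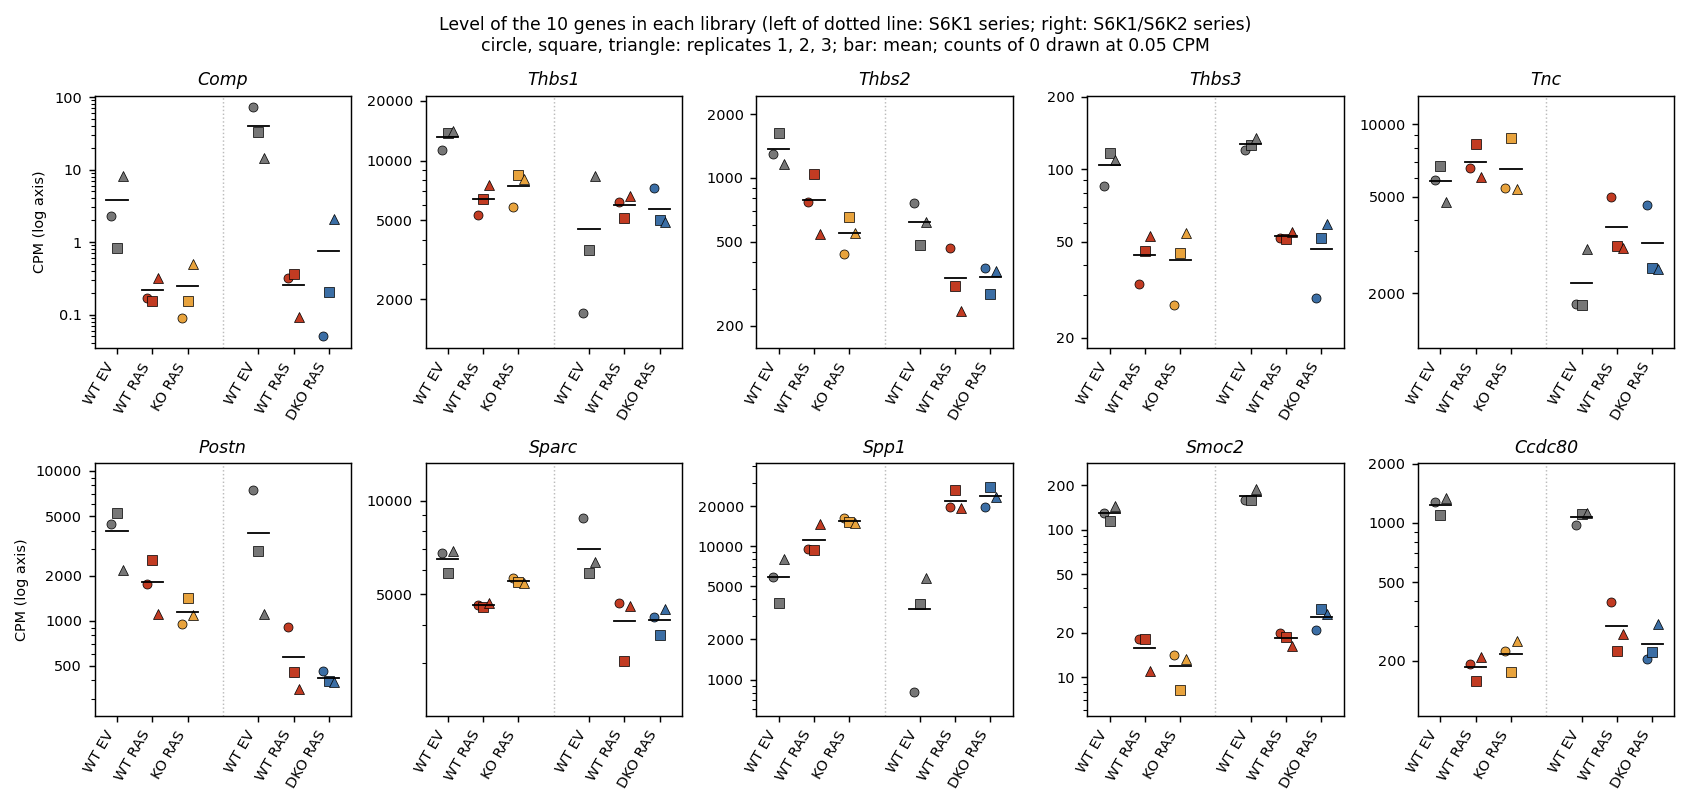
Level of each of the 10 genes in every library, in CPM on a log axis, by group, with the S6K1 series left and the S6K1/S6K2 series right of the dotted line. Circles, squares and triangles are replicates 1, 2 and 3, the bar is the mean, and a count of 0 is drawn at 0.05 CPM. Smoc2 and Ccdc80 are lower in all RAS libraries than in any EV library of their series, Spp1 is higher, and the KO or DKO points lie near the WT RAS points.

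To ask how RAS changed these genes, WT RAS was compared with WT EV in each series. Within the S6K1 series 6 of the 10 genes were called at an adjusted p under 0.05, all of them lower with RAS (Comp, Thbs1, Thbs3, Sparc, Smoc2 and Ccdc80). Of all 14036 genes tested, 13.2% were called in this comparison, 6.09% lower and 7.15% higher. With the replicate number as a block, 8 of the 10 were lower and 1 higher, adding Thbs2 and Postn (lower) and Spp1 (higher), where 36.2% of all genes were called, 18.1% in each direction. The count was 3 without WT RAS replicate 1, which lost Comp, Thbs3 and Sparc. The groups did not overlap for 8 of the 10 genes, against 30.9% of all genes. Within the S6K1/S6K2 series 8 of the 10 genes were called, 7 lower (Comp, Thbs2, Thbs3, Postn, Sparc, Smoc2 and Ccdc80) and 1 higher (Spp1), where 26.3% of the 13881 genes tested were called. Here 12.7% of all genes were called lower and 13.5% higher, and 9 of the 10 genes did not overlap between groups, against 42.5% of all genes. Without WT RAS replicate 2 the count was 5, with Thbs2, Postn and Sparc lost. The counts include Comp, which could pass the filter only by being high in WT EV and so had to differ. Without it, 5 and 7 of the other 9 genes were called, with a median log2 fold change of −1.03 and −0.88, where that over all genes was 0.00 and −0.02. In these bulk samples, fewer cells of a type and less RNA per cell cannot be told apart.

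Comp encodes cartilage oligomeric matrix protein, a thrombospondin of tendon and cartilage matrix. The gene lies at chr8:70373548-70382066 on the plus strand of GRCm38.p6. Replicates 1, 2 and 3 of WT EV in the S6K1 series had 2.30, 0.820 and 8.15 CPM (33, 11 and 89 counts), and those of WT RAS had 0.171, 0.156 and 0.321 CPM (2, 2 and 4 counts). The S6K1/S6K2 series had 72.7, 32.8 and 14.5 CPM in WT EV, and 0.324, 0.357 and 0.0927 CPM (3, 3 and 1 counts) in WT RAS. Comp was thus near or below the limit of a zero count in every WT RAS library and above it in every WT EV library, and the EV libraries differed among themselves by up to 9.95-fold in the first series and 5.01-fold in the second.

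Since only the WT EV libraries carried Comp past the filter, its call in either series follows in part from that choice and is given as a description. Comp had a log2 fold change of −4.04 (SE 0.93, 95% interval −6.14 to −1.94) in the S6K1 series, where edgeR gave an adjusted p of 0.0207. Summed over libraries, 8 counts stood against 133, a level 15.4-fold lower with RAS (95% exact counting interval 7.60 to 36.4). Counting intervals leave out the spread between libraries. The call was lost without WT RAS replicate 1 (−3.91, adjusted p 0.0757) or 2 (−3.84, adjusted p 0.0895), and the value was −2.80 without WT EV replicate 3. For the S6K1/S6K2 series the log2 fold change was −7.27 (95% interval −9.65 to −4.88), where edgeR gave an adjusted p of 0.00154. Summed over libraries, 7 counts stood against 1370, a level 171-fold lower with RAS (95% exact counting interval 82.7 to 426). With the WT RAS mean set to the floor of 3 counts per library, the level was 125-fold lower. Without WT EV replicate 1 the fitted log2 fold change moved from −7.27 to −6.51, and the call held without any single library. Cartilage and tendon markers were read beside Comp. Of the 8 cartilage markers, Matn1 was at or below the limit of a zero count in every group and Acan in 5 of the 6 groups, and the list summed to 20.9 to 49.0 CPM in all libraries, with Sox9 alone at means of 15.3 to 22.7 CPM. In the S6K1 series 2 of these markers were tested and 0 called. In the S6K1/S6K2 series 5 were tested, with a median log2 fold change of −1.51, and 4 had an unadjusted p under 0.05, against 5524 of all 13881 genes. Col2a1 was called lower (−4.08, edgeR adjusted p 0.0457), from a mean of 12.2 CPM with EV to 0.676 CPM with RAS. It was the only 1 of the 5 called, against 12.7% of all genes called lower. A marker so low with RAS may pass the filter through WT EV, as Comp did, so this call and the median are a description. The EV mean of Col2a1 rested on replicate 3, at 30.8 CPM. Hapln1 had means of 4.98 and 1.65 CPM and was not called. The 4 tendon markers Scx, Tnmd, Mkx and Fmod were all above it, and summed in the S6K1 series to 37.0 to 95.8 CPM with EV and 9.89 to 14.1 CPM with RAS in WT cells, and in the S6K1/S6K2 series to 87.7 to 247 CPM and 19.1 to 21.8 CPM. Of the 4 tendon markers, Tnmd and Fmod were called lower in the first series and Scx, Tnmd and Fmod in the second. That is 2 and 3 of the 4, against 6.09% and 12.7% of all genes called lower. The lowest log2 fold change among them was −6.93 and −7.38. A marker that low with RAS may pass the filter through WT EV alone, as Comp did, so these calls are a description. The part of cartilage and tendon markers in the Comp result was not tested.

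Thbs1 encodes thrombospondin-1, a matrix protein that activates latent TGF-β, binds CD36 and CD47 and restrains blood vessel growth. It lies at chr2:118111876-118127133 on the plus strand. Levels in WT EV of the S6K1 series were 11361, 13815 and 14178 CPM, which made Thbs1 rank 2 of all genes in each library, and levels in WT RAS were 5342, 6410 and 7500 CPM. All WT RAS values were below all WT EV values, and the fall was close to even, at −1.09, −1.11 and −0.92 on the log2 scale between libraries of the same number. Thbs1 fell by 1.03 on the log2 scale in the fit (SE 0.20, edgeR adjusted p 0.00884), and it was called without any single library. With all 18 libraries in 1 fit it was −1.02 with an adjusted p of 0.0990.

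Thbs1 in the S6K1/S6K2 series had 1709, 3564 and 8323 CPM in WT EV and 6221, 5123 and 6631 CPM in WT RAS. The EV libraries were spread over 4.87-fold and enclosed the RAS libraries. Between libraries of the same number the differences were 1.86, 0.52 and −0.33, with 2 of 3 higher in RAS. The fitted value was 0.40 (95% interval −0.63 to 1.44, adjusted p 0.545 in edgeR), so neither a rise nor a fall could be shown. Without WT EV replicate 3, the library with the highest EV level, it was 1.20 with an adjusted p of 0.0268.

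Thbs2 encodes thrombospondin-2, a close relative of thrombospondin-1 that takes part in collagen fibril assembly and also restrains vessel growth, and lies at chr17:14665500-14694262 on the minus strand. Its levels in the S6K1 series were 1299, 1630 and 1159 CPM in WT EV and 769, 1043 and 544 CPM in WT RAS. The groups did not overlap, and the log2 fold change was −0.80 (SE 0.25), where edgeR gave an adjusted p of 0.0697, or 0.0016 with the replicate block, and −1.04 with an adjusted p of 0.0420 without WT RAS replicate 2. The S6K1/S6K2 series had 760, 481 and 619 CPM in WT EV and 468, 308 and 236 CPM in WT RAS. All 3 RAS libraries were again below the EV libraries, and the log2 fold change was −0.88 (SE 0.26, edgeR adjusted p 0.0324). That call was lost in 4 of the 9 fits that left out 1 library, with −0.71 without WT EV replicate 1, −0.87 without WT EV replicate 3, and −0.81 and −0.67 without WT RAS replicates 2 and 3, and also with only the 6 compared libraries (−0.86, adjusted p 0.0661).

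Thbs3 encodes thrombospondin-3, which like Comp forms larger assemblies than thrombospondin-1 and is known from skeletal tissue. It lies at chr3:89215180-89226841 on the plus strand and overlaps Mtx1 on the other strand, so reads of the 2 genes could be mixed if strand was not used in counting. The S6K1 series had 85.1, 116.8 and 109.6 CPM in WT EV and 33.5, 45.6 and 52.9 CPM in WT RAS. The S6K1/S6K2 values were 119.7, 125.9 and 134.7 CPM in WT EV and 51.8, 51.4 and 55.1 CPM in WT RAS. No RAS library reached an EV library in either series, and the size was alike in both, with log2 fold changes of −1.24 (SE 0.26, edgeR adjusted p 0.0136) and −1.26 (SE 0.22, edgeR adjusted p 0.00302). The first call was lost without WT EV replicate 2 (−1.14) or WT RAS replicate 1 (−1.07) or 2 (−1.25), where the adjusted p was 0.0514 to 0.0530.

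Set side by side per kilobase of exons, the thrombospondin family (these 4 genes and Thbs4) summed in the S6K1 series to 2414 ± 264 CPM per kilobase in WT EV, 1199 ± 165 in WT RAS and 1328 ± 255 in the knockout. The sums in the S6K1/S6K2 series were 899 ± 545, 1055 ± 129 and 1014 ± 216 in WT EV, WT RAS and DKO RAS (SD, n = 3 for all). Thbs1 made up 85.0% to 95.5% of the family in all libraries other than 2 WT EV libraries of the S6K1/S6K2 series, and 60.4% in the lowest of them. In that library, replicate 1, Thbs2 held 27.5%, Comp 6.44% and Thbs3 5.33%. In WT RAS of that series Comp held at most 0.0162% of the family. Thbs2 held 3.48% to 14.2% in the RAS libraries of both series.

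**Figure D2:**
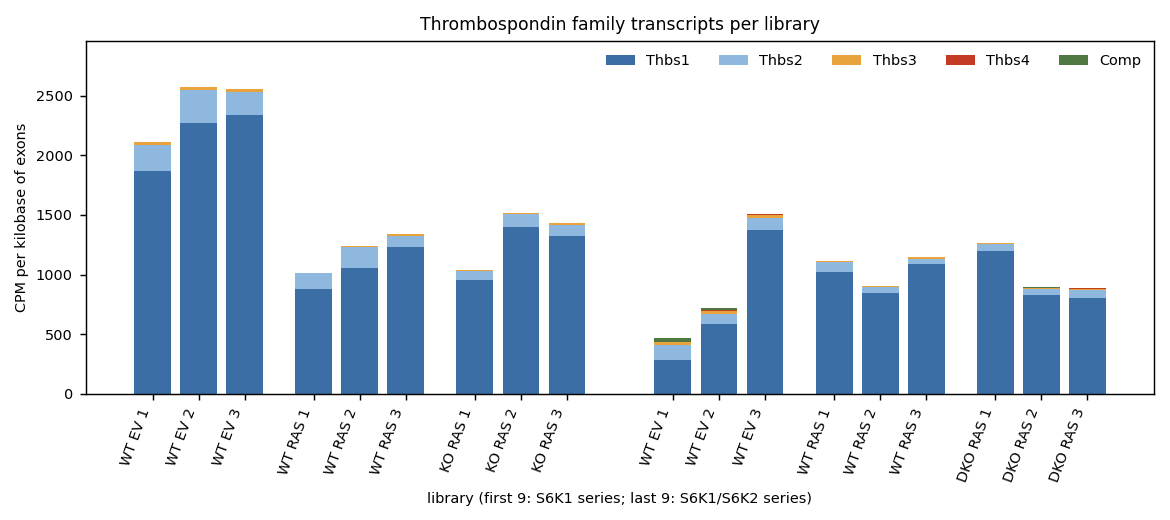
Stacked CPM per kilobase of exons of the 5 thrombospondin genes in each library, the first 9 from the S6K1 series and the last 9 from the S6K1/S6K2 series. Thbs1 is the main part of each bar, the WT EV bars of the S6K1 series are the tallest (2109 to 2575), and the WT EV bars of the S6K1/S6K2 series run from 466 to 1511.

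Tnc encodes tenascin-C, an adhesion-modulating protein abundant in embryos, wounds and tumour stroma. It lies at chr4:63959785-64047015 on the minus strand and overlaps 8030451A03Rik on the other strand, with the same limit on strand. Its S6K1 series levels were 5889, 6731 and 4764 CPM in WT EV and 6582, 8271 and 6038 CPM in WT RAS. These groups overlapped, and the log2 fold change was 0.27 (95% interval −0.26 to 0.79, adjusted p 0.515 in edgeR). Each RAS library was above the EV library of its number, by 0.16, 0.30 and 0.34 on the log2 scale. With the replicate block the edgeR adjusted p was 0.100. The S6K1/S6K2 levels were 1799, 1784 and 3033 CPM in WT EV and 5011, 3142 and 3081 CPM in WT RAS. The lowest RAS library lay just above the highest EV library, and the log2 fold change was 0.76 (SE 0.33) where edgeR gave an adjusted p of 0.110, or 0.0362 with no filter on low counts. Without WT EV replicate 3 the value was 1.07 with an adjusted p of 0.0385. Tnc and Thbs1 were the only 2 of the 10 genes that were not called in this comparison of the S6K1/S6K2 series.

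Postn encodes periostin, a matrix protein of periosteum, tendon and healing tissue that binds collagen and integrins, and lies at chr3:54359267-54391041 on the plus strand. The S6K1 series had 4440, 5266 and 2183 CPM in WT EV and 1756, 2549 and 1102 CPM in WT RAS. Replicate 3 was the lowest of its group in both, so the groups overlapped although each RAS library was below the EV library of its number, by 1.34, 1.05 and 0.99 on the log2 scale. The log2 fold change was −1.14 (SE 0.37), where edgeR gave an adjusted p of 0.0779, or 0.00172 with the replicate block, and −1.43 with an adjusted p of 0.0278 without WT EV replicate 3. The S6K1/S6K2 series had 7489, 2903 and 1107 CPM in WT EV and 905, 454 and 349 CPM in WT RAS. All RAS libraries were below all EV libraries there, with the EV libraries spread over 6.77-fold. Postn fell by 2.75 on the log2 scale (SE 0.61, edgeR adjusted p 0.0104). Without WT EV replicate 1 the value was −1.82, and without WT RAS replicate 2 it was −2.61 with an adjusted p of 0.0509.

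**Figure D3:**
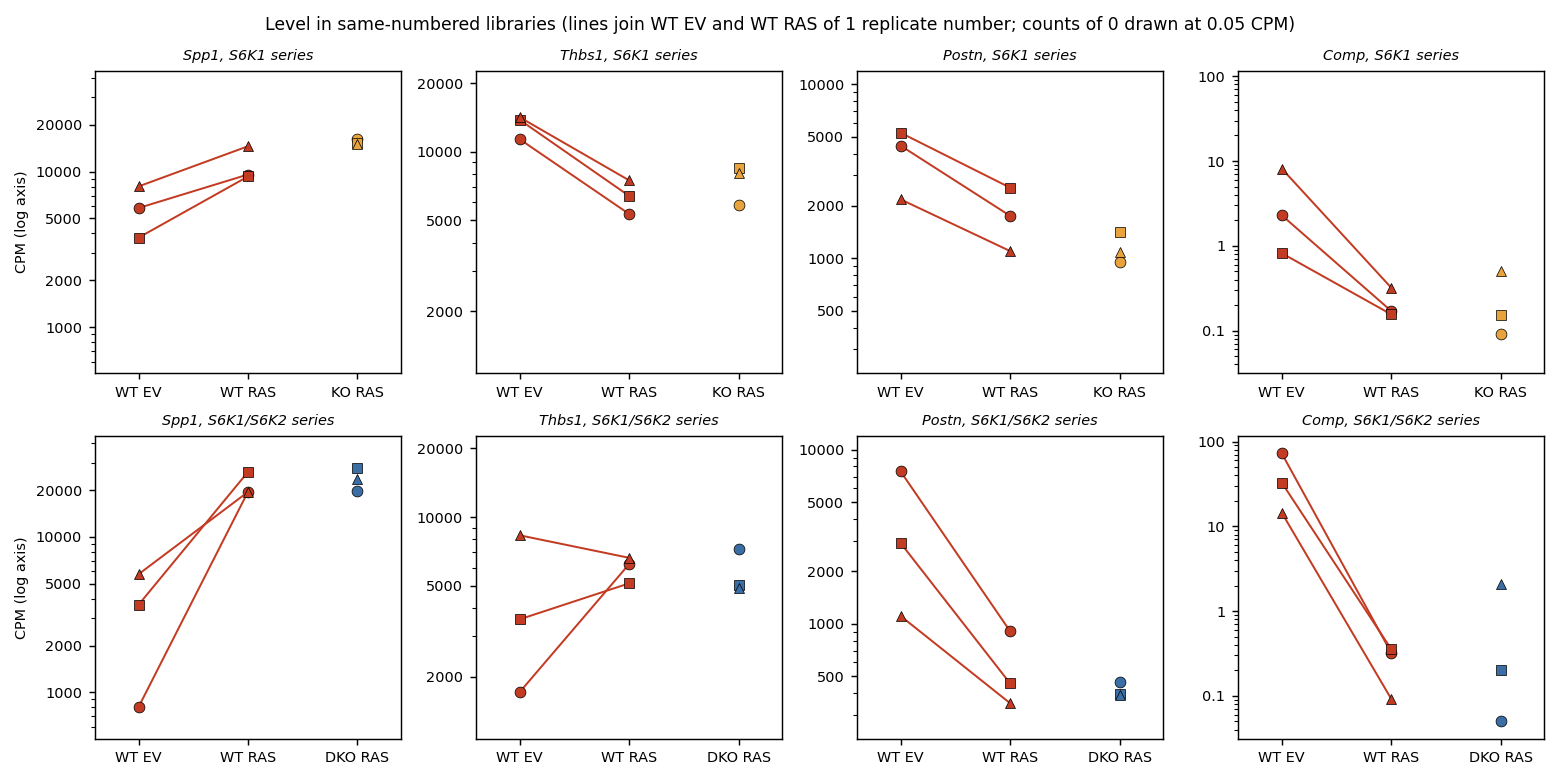
Level in CPM on a log axis of Spp1, Thbs1, Postn and Comp in each library of the S6K1 series (top) and the S6K1/S6K2 series (bottom), with lines joining WT EV and WT RAS libraries of the same replicate number. Spp1 lines go up and Postn and Comp lines go down in all 6 pairs, while Thbs1 goes down in the 3 pairs of the S6K1 series and runs from 1.86 to −0.33 on the log2 scale in those of the S6K1/S6K2 series.

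Sparc encodes osteonectin, a collagen-binding protein that modulates adhesion and matrix assembly, and lies at chr11:55394159-55420080 on the minus strand. It was among the 19 most abundant transcripts in every library. The S6K1 series had 6777, 5869 and 6880 CPM in WT EV and 4634, 4552 and 4676 CPM in WT RAS. The 3 RAS libraries had a coefficient of variation of 1.36% and lay below all EV libraries. The log2 fold change was −0.49 (SE 0.12, edgeR adjusted p 0.0274), the smallest called change of the 10 genes in that comparison. Libraries of the S6K1/S6K2 series had 8776, 5851 and 6357 CPM in WT EV and 4703, 3059 and 4588 CPM in WT RAS. These groups did not overlap either, and the log2 fold change was −0.76 (SE 0.24, edgeR adjusted p 0.0395). The Sparc call held in 4 and 2 of the 9 fits that left out 1 library in the 2 series. It was lost in the first without WT EV replicate 1 or 3 or any WT RAS library (−0.50 to −0.45, adjusted p up to 0.111), and in the second it held only without WT EV replicate 3 or DKO RAS replicate 1 (−0.88 to −0.57 otherwise, adjusted p up to 0.144). With only the 6 compared libraries the adjusted p was 0.0614 and 0.0828 in the 2 series, and in the first it was 0.0989 with all 18 libraries and 0.0860 with no filter on low counts.

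Smoc2 encodes a calcium-binding modular protein related to Sparc, and lies at chr17:14279490-14404790 on the plus strand. It was far lower in amount than Sparc but changed more. Its S6K1 series levels were 128.8, 114.9 and 144.5 CPM in WT EV and 18.3, 18.2 and 11.0 CPM in WT RAS. The S6K1/S6K2 levels were 158.8, 158.6 and 186.8 CPM in WT EV and 20.1, 18.7 and 16.3 CPM in WT RAS. Every RAS library was thus several times below every EV library. Smoc2 fell by 3.03 on the log2 scale (SE 0.25, edgeR adjusted p 0.000202) in the first series and by 3.19 (SE 0.16, edgeR adjusted p 1.85e-05) in the second, and both calls held without any single library.

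Ccdc80 encodes a secreted matrix protein made by fibroblasts and adipose tissue that promotes cell adhesion, and lies at chr16:45093407-45127924 on the plus strand. Levels in the S6K1 series were 1277, 1092 and 1337 CPM in WT EV and 191.5, 157.5 and 209.6 CPM in WT RAS. Those in the S6K1/S6K2 series were 971, 1106 and 1118 CPM in WT EV and 396, 224 and 274 CPM in WT RAS. No RAS library came near an EV library, and replicate 1 had the highest RAS level in the second series. The log2 fold change was −2.73 (SE 0.18, edgeR adjusted p 0.000102) and −1.84 (SE 0.23, edgeR adjusted p 0.00078), and both calls held without any single library.

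Spp1 encodes osteopontin, a secreted phosphoprotein that binds integrins and CD44, made by bone cells, macrophages, activated fibroblasts and many tumour cells. It lies at chr5:104435111-104441053 on the plus strand. The S6K1 series had 5833, 3760 and 8031 CPM in WT EV and 9581, 9307 and 14566 CPM in WT RAS. The S6K1/S6K2 series had 804, 3660 and 5754 CPM in WT EV and 19549, 26231 and 19479 CPM in WT RAS. All WT RAS libraries were above all WT EV libraries of their series, and in each WT RAS library of the second series Spp1 was the most abundant of all transcripts, with 1.90% to 2.65% of the counts. The EV libraries of that series were spread over 7.16-fold and the RAS libraries much less, with coefficients of variation of 73.0% and 17.8%.

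Spp1 was the one gene of the 10 called higher with RAS. Its log2 fold change was 2.67 (SE 0.58, edgeR adjusted p 0.00889) in the S6K1/S6K2 series, with rises of 4.60, 2.84 and 1.76 between libraries of the same number, and it was 3.30 without WT EV replicate 3. For the S6K1 series it was 0.92 (SE 0.28), with differences of 0.72, 1.31 and 0.86, an edgeR adjusted p of 0.0599, and 0.00365 with the replicate block, and it was 1.22 with an adjusted p of 0.0289 without WT EV replicate 3. Macrophages also make Spp1, so their markers were read beside it. The 10 macrophage markers, all above the limit of a zero count in every group, summed in the S6K1 series to 564 to 2815 CPM with EV and 644 to 3235 CPM with RAS in WT cells, and in the S6K1/S6K2 series to 143 to 1247 CPM and 165 to 900 CPM. With RAS 0 of these 10 were called by edgeR or DESeq2 in either series, where edgeR called 13.2% and 26.3% of all genes. DESeq2 called 2386 of 27607 and 4116 of 27257 genes. At an unadjusted p under 0.05 in edgeR there were 0, against 3710 of all 14036 and 5524 of all 13881 genes. The replicate block called 3 in the S6K1 series (2 higher, 1 lower), against 36.2% of all genes. In the S6K1/S6K2 series it called 2 (0 higher, 2 lower), against 3980 of 13881 genes. Of the 7 bone markers, Bglap and Alpl were at or below the limit of a zero count in all 6 groups, and the list summed to 26.4 to 50.5 CPM over all libraries, with Runx2 alone at means of 27.7 to 37.1 CPM. In the S6K1 series 2 of them were tested and 0 called. In the S6K1/S6K2 series 4 were tested and Phex was called lower with RAS (−1.97, edgeR adjusted p 0.0187), from a mean of 10.9 CPM to 2.78 CPM. The part of bone cells in the Spp1 level was not tested.

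The 250 bases before the start of Spp1, which was called higher, are shown beside those of Thbs2, which was called lower, so that the promoters of genes that moved in opposite directions can be read together. Both calls were made in the S6K1/S6K2 series alone, since the adjusted p in the S6K1 series was 0.0599 for Spp1 and 0.0697 for Thbs2, and that of Thbs2 was lost in 4 of the 9 fits without 1 library. Sequences are from RefSeq on GRCm38.p6, at chr5:104434861-104435110 (plus strand, first listed start) and chr17:14694263-14694512 (minus strand), each 5′ to 3′ on the gene's strand. Capitals mark the RUNX motif, here as ACCACA, which is TGTGGT on the other strand.
Spp1: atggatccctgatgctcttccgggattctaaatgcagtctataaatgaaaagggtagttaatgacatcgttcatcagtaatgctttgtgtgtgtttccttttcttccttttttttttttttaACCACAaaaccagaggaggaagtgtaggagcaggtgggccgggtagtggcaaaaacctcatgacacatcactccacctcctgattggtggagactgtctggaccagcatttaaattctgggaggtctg
Thbs2: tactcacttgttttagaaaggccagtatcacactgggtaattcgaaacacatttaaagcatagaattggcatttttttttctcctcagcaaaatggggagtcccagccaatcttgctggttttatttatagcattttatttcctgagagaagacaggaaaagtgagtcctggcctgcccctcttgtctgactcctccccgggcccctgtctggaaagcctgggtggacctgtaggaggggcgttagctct
Windows were at hand for 6 of the 10 genes (Postn, Thbs3, Tnc, Spp1, Sparc and Thbs2), and Comp, Thbs1, Smoc2 and Ccdc80 had none. Both strands were searched for 3 motifs, RUNX (TGTGGT), AP-1 (TGAGTCA or TGACTCA) and TEAD (GGAATG), whose letters do not overlap one another. The RUNX match in Spp1, starting 128 bases before the start, was the only match in the windows of the 6 genes. Among all 32851 promoter windows of the same length, 14% held the RUNX letters, 4.46% an AP-1 motif and 12.6% the TEAD letters. A match describes the letters in the window, not binding.

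**Figure D4:**
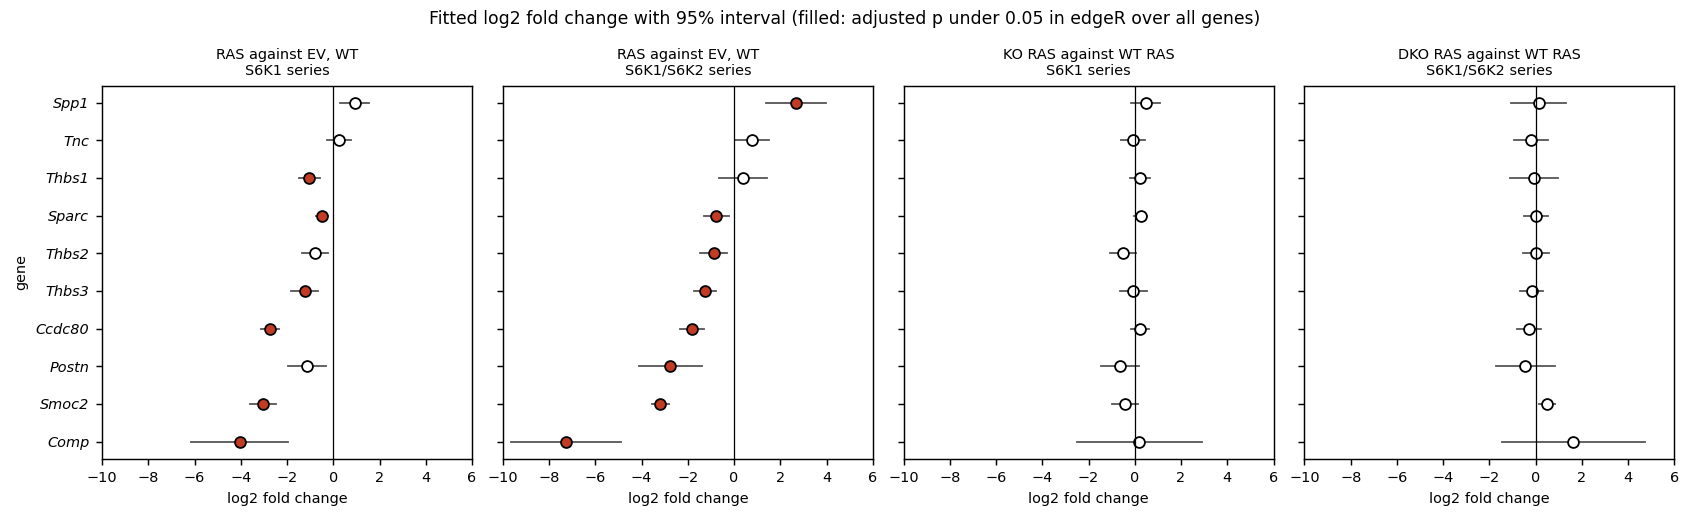
Fitted log2 fold change of each gene with its 95% interval in 4 comparisons, filled where the adjusted p in edgeR over all genes was under 0.05. With RAS, 6 and 8 of the 10 points are filled, and 0 of 10 are filled with the loss of S6K1 or of both kinases.

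Whether the S6 kinases alter these genes in RAS cells was asked by comparing KO RAS or DKO RAS with WT RAS. None of the 10 genes was called in the S6K1 series in edgeR, nor with the replicate block or in DESeq2. At an unadjusted p under 0.05 there were 0 without the block, 5 with it (Thbs2, Postn, Spp1, Ccdc80 and Sparc, with p from 0.0060 to 0.0254) and 2 in DESeq2 (Sparc and Thbs2). At an unadjusted p under 0.05 there were 963 of all 14036 genes without the block, 2497 with it and 1104 of 27607 in DESeq2. At the adjusted threshold 0.00712% of all genes were called there, 4.15% with the block, and 96 of 27607 genes in DESeq2. The groups did not overlap for 2 of the 10 genes, Spp1 and Sparc, against 8.02% of all genes. In the S6K1/S6K2 series none of the 10 was called in edgeR, where 0.0216% of all genes were called, or in DESeq2, where 10 of 27257 were. Smoc2 alone had an unadjusted p under 0.05, against 179 of all 13881 genes. It also alone had groups that did not overlap, against 6.07% of all genes without overlap. The median log2 fold change over the 10 genes was 0.07 with the loss of S6K1 and −0.03 with the loss of both, and 0.03 and 0.00 over all genes.

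Among the thrombospondins, Thbs1 had 5819, 8472 and 8062 CPM in KO RAS, which overlapped WT RAS, and a log2 fold change of 0.22 (95% interval −0.23 to 0.66). In DKO RAS it had 7254, 5044 and 4887 CPM, with a log2 fold change of −0.06 (95% interval −1.10 to 0.97). Thbs2 had 437, 656 and 546 CPM in KO RAS, and its log2 fold change of −0.52 (SE 0.25) came with the smallest unadjusted p of the 10 genes in that series, 0.0644, and an edgeR adjusted p of 0.789. The DKO libraries of Thbs2 had 374, 284 and 365 CPM, next to the WT RAS values, at 0.02 (95% interval −0.56 to 0.59). Thbs3 had 27.2, 44.8 and 54.2 CPM in KO RAS and 29.1, 51.6 and 59.0 CPM in DKO RAS, with replicate 1 the lowest in both. Its log2 fold changes were −0.07 (95% interval −0.65 to 0.52) and −0.18 (95% interval −0.66 to 0.30).

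Comp stayed near the limit of a zero count in KO RAS, with 1, 2 and 6 counts against 2, 2 and 4 in WT RAS, a ratio of 1.11 (95% exact counting interval 0.379 to 3.30). Its fitted log2 fold change was 0.20 (95% interval −2.52 to 2.91). In DKO RAS it had 0, 2 and 23 counts against 3, 3 and 1. The DKO mean was 2.37-fold above the floor of 3 counts per WT RAS library, but this value rests on replicate 3, at 2.08 CPM, since the other DKO libraries had no more than 2 counts. The fitted log2 fold change was 1.62 with an edgeR adjusted p of 1.00, and −1.21 without that library.

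Postn had 959, 1410 and 1089 CPM in KO RAS and 465, 394 and 392 CPM in DKO RAS. Both groups overlapped their WT RAS group, with log2 fold changes of −0.65 (95% interval −1.47 to 0.18) and −0.45 (95% interval −1.73 to 0.84). Tnc had 5434, 8740 and 5416 CPM in KO RAS and 4624, 2548 and 2526 CPM in DKO RAS, again across the WT RAS range. Its log2 fold changes were −0.09 (95% interval −0.61 to 0.43) and −0.21 (95% interval −0.94 to 0.51), so a 2-fold change in either direction lay outside both intervals.

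Sparc had 5630, 5466 and 5446 CPM in KO RAS, all above the WT RAS libraries and below the WT EV libraries. The difference from WT RAS was 0.26 on the log2 scale (SE 0.12, unadjusted p 0.0647, edgeR adjusted p 0.791). In DKO RAS it had 4239, 3702 and 4472 CPM, within the range of WT RAS, and a log2 fold change of 0.01 (95% interval −0.52 to 0.53). Smoc2 had 14.2, 8.28 and 13.3 CPM in KO RAS, with a log2 fold change of −0.41 (95% interval −0.97 to 0.15). In DKO RAS it had 20.8, 29.1 and 26.9 CPM, all above the WT RAS libraries, and a log2 fold change of 0.48 (SE 0.15, unadjusted p 0.0108, edgeR adjusted p 1.00). Every DKO library of Smoc2 stayed far below the WT EV libraries.

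Spp1 had 16193, 15170 and 14949 CPM in KO RAS, all above the WT RAS libraries, the highest of which had 14566 CPM. The log2 fold change was 0.47 (95% interval −0.15 to 1.09, edgeR adjusted p 0.942). Its DKO libraries had 19683, 27907 and 23543 CPM, across the range of WT RAS, with a log2 fold change of 0.12 (95% interval −1.08 to 1.33). Macrophage markers summed to 223 to 772 CPM in KO RAS and 70.3 to 213 CPM in DKO RAS, below the WT RAS sums given above. All 10 markers had lower fitted values in both comparisons, with a median log2 fold change of −2.18 and −1.96, 10 and 1 of them at an unadjusted p under 0.05, 0 called in edgeR and 10 and 1 called with the replicate block. Of all genes, 963 of 14036 and 179 of 13881 had an unadjusted p under 0.05, and 583 and 8 were called with the block. The fitted values of Spp1 were above 0 in both, and the part of these cells in its level was not tested. Ccdc80 had 224, 175 and 251 CPM in KO RAS and 204, 221 and 306 CPM in DKO RAS, with log2 fold changes of 0.22 (95% interval −0.16 to 0.60) and −0.29 (95% interval −0.80 to 0.21).

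The RAS cells without the kinases were also set against the WT EV cells of their series. These comparisons share the WT EV libraries with those above, so the values stand side by side and are not independent. In KO RAS 8 of the 10 genes were called against WT EV, 7 lower and Spp1 higher, where 18.1% of all genes were called (8.56% lower, 9.55% higher), and 9 of 10 did not overlap, against 34.9% of all genes. Without Comp, which again passed the filter through WT EV alone, 7 of the other 9 were called, here and in DKO RAS. Tnc and Sparc were the genes not called, Sparc with a log2 fold change of −0.24 (SE 0.12, edgeR adjusted p 0.218) beside −0.49 in WT RAS. Thbs2 (−1.32 beside −0.80), Postn (−1.78 beside −1.14) and Spp1 (1.39 beside 0.92) were called in KO RAS, with edgeR adjusted p of 0.00733, 0.0115 and 0.00946. The Spp1 call was lost with all 18 libraries in 1 fit (1.39, adjusted p 0.0534), as was that of Thbs1 (adjusted p 0.159). Comp was called at −3.84, but not without KO RAS replicate 1 (−3.50) or 2 (−3.58), and was −2.60 without WT EV replicate 3. Thbs1 was called at −0.82, but not without WT EV replicate 2 (−0.78) or 3 (−0.76). Thbs3 was −1.30, Smoc2 −3.44 and Ccdc80 −2.51 in the same comparison. In DKO RAS 8 of the 10 genes were called, 7 lower and Spp1 higher, where 25.7% of all genes were called (12.6% lower, 13.1% higher), and 8 of 10 did not overlap, against 43.5%. Comp was −5.64 there (edgeR adjusted p 0.00227), and −8.46 without DKO replicate 3. Thbs1, at 0.34, and Tnc, at 0.55, were the 2 genes not called, and Thbs1 was 1.13 with an adjusted p of 0.0338 without WT EV replicate 3. The other values in DKO RAS were −0.86 for Thbs2, −1.44 for Thbs3, −3.20 for Postn, −0.76 for Sparc, 2.80 for Spp1, −2.71 for Smoc2 and −2.13 for Ccdc80. Leaving out 1 library moved Postn to −2.27 (without WT EV replicate 1) and Spp1 to 3.42 (without WT EV replicate 3). Thbs2 kept its call in 3 and Sparc in 2 of the 9 fits without 1 library, Thbs2 losing it without WT EV replicate 1 or 3, WT RAS replicate 2 or any DKO library (−0.93 to −0.69) and Sparc holding it only without WT EV replicate 3 or WT RAS replicate 2 (−0.87 to −0.56 otherwise).

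Because Thbs1, Postn and Spp1 looked unlike in the 2 series, the difference itself was tested over all 18 libraries. Each series had its own cells and libraries, so a batch cannot be told apart from the series. For the RAS effect, 0 of the 10 genes were called in edgeR, with or without the block, where 0.0% of all genes were called without it and 0.4% with it. Values are given as the S6K1/S6K2 value minus the S6K1 value. At an unadjusted p under 0.05 there were 4 of the 10 genes, against 1819 of all 14483. These were Spp1 at 1.74 (SE 0.66, edgeR adjusted p 0.32), Thbs1 at 1.42 (SE 0.55, adjusted p 0.327), Postn at −1.63 (SE 0.75, adjusted p 0.389) and Ccdc80 at 0.88 (SE 0.29, adjusted p 0.277). DESeq2 called 0 of the 10, against 142 of all 30060 genes. Without WT EV replicate 3 of the S6K1/S6K2 series, Thbs1 was 2.21 with an adjusted p of 0.0139 and Spp1 was 2.35. Postn was −0.70 without WT EV replicate 1 of that series. Comp, at −3.25, was −4.47 without WT EV replicate 3 of the S6K1 series. For the effect of kinase loss, 0 of the 10 were called, where 0.0069% of all genes were called, and Smoc2 had the smallest unadjusted p (0.92, SE 0.31, unadjusted p 0.0088, edgeR adjusted p 1.00).

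Other matricellular genes were read from a list of 34, of which 30 passed the filter. For WT RAS against WT EV of the S6K1 series 14 were called, 12 lower and 2 higher, against 6.09% and 7.15% of all genes. With the replicate block 25 were called, 21 lower and 4 higher, against 18.1% of all genes in each direction. The largest among those with at least 50 counts on average were Smoc1 (−3.81, SE 1.09), a relative of Smoc2, Tnn (−3.25, SE 0.64), which encodes tenascin-N, Ccn5 (−3.23, SE 0.47), a CCN family protein, and Fbln5 (−1.69, SE 0.24), which encodes the elastic fibre protein fibulin-5. The S6K1/S6K2 series had 10 called, 9 lower and 1 higher, against 12.7% and 13.5% of all genes, led by Smoc1 (−2.78, SE 0.78), Fbln5 (−2.22, SE 0.30), Tgfbi (−1.31, SE 0.35), a relative of periostin, and Ccn1 (1.25, SE 0.25), a CCN protein that binds integrins and the one gene higher. The median log2 fold change over the 30 genes was −0.80 and −0.73. With the loss of S6K1 0 were called in edgeR, with 4 at an unadjusted p under 0.05, against 963 of all 14036 genes. DESeq2 called 1 (96 of all 27607 genes), and the block called 2 (4.15% of all genes), Ccn5 lower (−1.82 in the fit without it) and Spock3 higher (0.84). With the loss of both kinases 0 were called and 0 had an unadjusted p under 0.05, against 179 of all 13881 genes. DESeq2 called 0, and the smallest p values belonged to Thbs4 (2.31, SE 1.09) and Mgp (0.52, SE 0.31). Thbs4 was low, with 0.0167%, 0.256% and 0.823% of the thrombospondin family in DKO RAS replicates 1, 2 and 3. It held 0.0707%, 0.0958% and 0.0296% in those of WT RAS, so its value rested on DKO replicates 2 and 3.

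Receptors of these proteins were taken as a list of 17 genes, all tested. Osteopontin, thrombospondins, tenascin-C and periostin bind αv, β1 and other integrins, and CD44, CD36 and CD47 bind osteopontin or thrombospondins. Against WT EV, WT RAS of the S6K1 series had 8 of 17 called, 3 higher and 5 lower, where 13.2% of all genes were called, and the fitted values were above 0 for 10 and below 0 for 7. The largest were Itgb3 (2.62, SE 0.34) and Itga3 (1.79, SE 0.30), both higher, and Cacna2d1 (−1.36, SE 0.38), a thrombospondin receptor of neurons, and Itga8 (−1.36, SE 0.31), both lower. The S6K1/S6K2 series had 8 called, 7 higher and 1 lower, where 26.3% of all genes were called, with 11 values above 0 and 6 below, led by Itgb3 (3.87, SE 0.37), Itga3 (2.57, SE 0.27), Itga4 (2.50, SE 0.27) and Cd44 (2.32, SE 0.36). Itgb3, the β3 integrin subunit, had 53.2 ± 14.4 CPM with EV and 328 ± 89.5 CPM with RAS in S6K1 WT cells, and 16.3 ± 6.78 CPM and 238 ± 70.2 CPM in the other WT cells (SD, n = 3). With kinase loss 0 of 17 were called in either series in edgeR or DESeq2. With the block 3 were called for S6K1, against 4.15% of all genes, and the 2 of smallest unadjusted p were Itga3 (0.86, SE 0.29, adjusted p 0.0336 with the block) and Cd36 (−1.56, SE 0.58, adjusted p 1.82e-05 with the block). With the loss of both kinases the smallest unadjusted p values belonged to Cd36 (−2.02, SE 0.91) and Sdc4 (0.18, SE 0.13). At an unadjusted p under 0.05 there were 2 and 0 of the 17, against 963 of 14036 and 179 of 13881 genes. Cd36, which macrophages also express, stands beside the lower macrophage sums of KO RAS and DKO RAS given above, and their part was not tested.

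**Figure D5:**
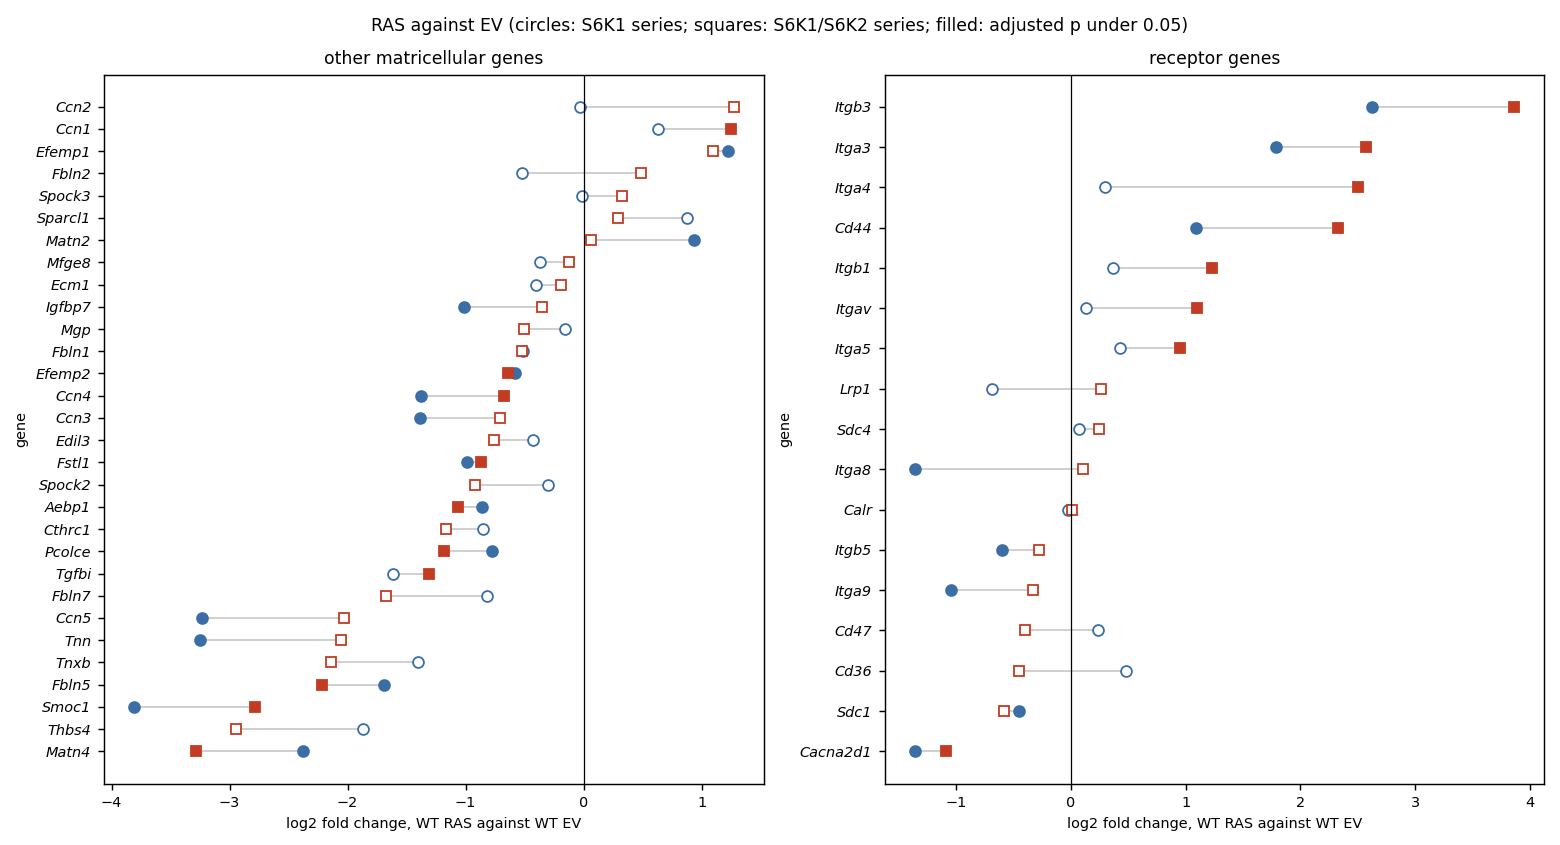
Log2 fold change of WT RAS against WT EV for the tested genes of the list of other matricellular genes (left) and of receptor genes (right), with circles for the S6K1 series, squares for the S6K1/S6K2 series and filled points where the adjusted p in edgeR was under 0.05. Most matricellular genes lie left of 0 (26 and 23 of 30), and Itgb3 is the highest receptor gene in both series at 2.62 and 3.87.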

How the data were processed

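RNA-seq counts of 18 libraries were taken as the authors deposited them, in raw counts per gene without normalization. The study's methods name a stranded kit, single-end reads, TopHat on mm9 and HTSeq, whereas the submitters' processing notes name mm10, STAR 2.7.1a and DESeq2 1.28.1. Which of these made the table, and whether counting used strand, is not settled, so genes with an antisense neighbour are uncertain. Positions are from RefSeq on GRCm38.p6, and exon lengths, used for levels per kilobase alone, from GENCODE vM1. Symbols were matched for 32589 identifiers, with 99.1% of counts. The number of columns of unknown sample was 0.

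Groups came from the labels. Tests used edgeR 4.0.16 under R 4.3.3, with 1 fit for the 9 libraries of a series, filterByExpr (minimum count 10), TMM scaling, two-sided quasi-likelihood tests and Benjamini-Hochberg adjustment over all genes tested (threshold 0.05). Intervals of log2 fold changes are 95% intervals of that fit. The fit was tested on simulated data. The members and lists were chosen with earlier results of these data known. All members are named. Of each other list, up to 4 called genes with the largest change and a mean of at least 50 counts are named per comparison, or, with none called, the 2 of smallest p. Differences between series were tested over all 18 libraries. Replicates are the labels' numbered libraries. The study's methods state that MEFs came from embryos of several mothers, but link no library number to an embryo, so p-values measure the spread between these libraries. Over the 18 replicate pairs, chi-square divided by its degrees of freedom was at least 7.98, so no pair agreed within sampling noise. Counting intervals (exact, Clopper-Pearson) and the floor of 3 counts cover counting error only.

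Pairing was checked by correlating deviations from group means between libraries of the same number. WT EV and WT RAS gave 0.684, 0.444 and 0.668 in the S6K1 series and 0.366, 0.293 and 0.308 in the other, and WT RAS and KO RAS, from littermates, gave 0.692, 0.393 and 0.616, so the numbers were taken as pairs there in the replicate block. The main fit, which gave the calls, SEs and intervals where no block is named, held the group alone and no pairing. Alternatives were this block, DESeq2 1.42.0, its size factors, no filter on low counts, a minimum of 10 counts in all libraries, fits of the 6 compared or of all 18 libraries, and leaving out each library.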

Additional observations from a re-analysis of the deposited data

How the results depend on the processing

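Of 108 counts of called genes under settings other than leaving out a library, 101 stayed within 1.5 times the reported count. The exceptions were, in the S6K1 series, the other matricellular genes called with RAS, which were 25 with the replicate block, the receptors called with RAS, which were 5 with only the 6 compared libraries, and, with the loss of S6K1, 2 other matricellular genes with the block, 1 with DESeq2 and 1 with no filter, and 3 receptors with the block. In the S6K1/S6K2 series the other matricellular genes called with RAS were 20 with no filter. The causes were not tested. The block changed no other count of called genes among the 10 members by over 1.5 times. It was also run for DKO RAS against WT RAS, where the pairing check gave 0.279, 0.454 and −0.035, so those libraries share only a number, and it called 0 members.

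Leaving out each library in turn gave 3 to 7 members called with RAS in the S6K1 series (3 without WT RAS replicate 1) and 5 to 9 in the S6K1/S6K2 series (5 without WT RAS replicate 2), 0 to 1 for the difference in RAS effect (1 without WT EV replicate 3 of the S6K1/S6K2 series), 10 to 15 and 6 to 14 other matricellular genes (6 without WT RAS replicate 2), and 4 to 8 receptors in the S6K1 series (4 without WT EV replicate 2 or WT RAS replicate 1 or 2, 5 without WT EV replicate 3). Comp had no value in the S6K1 series without WT EV replicate 1, and none with at least 10 counts in every library.

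A change of sign appeared only when a library was left out, and only for values that were not called. For KO against WT RAS the log2 values ran from −0.75 to 0.59 for Comp, −0.29 to 0.16 for Thbs3 and −0.36 to 0.0379 for Tnc. For DKO against WT RAS they ran from −1.21 to 2.19 for Comp, −0.27 to 0.0396 for Thbs1, −0.18 to 0.33 for Thbs2, −0.39 to 0.0683 for Thbs3, −0.56 to 0.0554 for Tnc, −0.70 to 0.0539 for Postn, −0.17 to 0.11 for Sparc and −0.0171 to 0.28 for Spp1. Against WT EV, Tnc in KO RAS ran from −0.0937 to 0.29 and Thbs1 in DKO RAS from −0.0554 to 1.13. The difference in RAS effect ran from −0.40 to 0.17 for Thbs2 and −0.19 to 0.10 for Thbs3, and that in loss effect from −1.39 to 2.39 for Comp, −0.11 to 0.73 for Postn, −0.32 to 0.14 for Thbs3 and −0.45 to 0.18 for Tnc. Levels under DESeq2 size factors moved by less than 1 SD for all 60 means. Comp is limited by depth in RAS cells, where most libraries are at or under 3 counts.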
